A study of Mus musculus with 24 samples.

Results

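Genes known to respond to glucocorticoids were followed in the mouse hippocampus over the first hours after fear conditioning. They were Plin4, Hif3a, Fkbp5, Zbtb16, Tsc22d3, Sgk1, Nfkbia, Ddit4, Errfi1 and Cdkn1a, which make up 10 of the 47593 genes in the count table. Of these, 8 were picked as known targets of the glucocorticoid receptor, though with earlier results of these data known. Plin4 and Hif3a were instead chosen by their measured levels, since they were lower at 15 min than in naive mice among the libraries labelled Tob-KO. For that reason Plin4 and Hif3a are described without a test wherever Tob-KO naive or Tob-KO 15 min libraries enter, which leaves 8 of the 10 genes to test there.

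The libraries came from 24 male mice on the C57BL/6J background aged 8 to 12 weeks, in 8 groups of 3. WT mice and mice with a deletion of Tob, a gene of the anti-proliferative Tob/BTG family, were either naive, that is not conditioned, or culled 15 min, 1 h or 3 h after tones had been paired with foot shocks. The deletion was not restricted to a cell type, no group received a hormone or a receptor blocker, and corticosterone was not measured in these files. Whole hippocampus was sequenced as bulk poly(A) RNA, so fewer cells of a type and less RNA per cell cannot be told apart. Each library held between 28847989 and 41595972 counts.

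Corticosterone, the main glucocorticoid of the mouse, is released from the adrenal gland during stress and also follows the daily rhythm. It enters cells and binds the glucocorticoid receptor Nr3c1, which leaves its chaperones, moves to the nucleus and binds DNA at a palindrome built from AGAACA and its reverse complement. The hippocampus is rich in this receptor and in the related receptor Nr3c2, and is known for its part in the feedback that ends the stress response. Fkbp5, one of its targets, feeds back on the receptor.

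The letters GNACA, a spacer NNN and the letters TGTNC, which read alike on both strands and cover the palindrome, were searched in RefSeq's promoter windows of GRCm38.p6, from 250 bases before to 50 bases after each start. Of the 10 genes, 9 had such a window, 18 windows in all, and Zbtb16 had none in the table. Only Sgk1 held the full letters, in 1 of these windows, while 0.475% of all 32851 windows held them. Its single arm, AGAACA, was found in Sgk1 and Tsc22d3, 2 of the 9 genes, against 21.3% of all genes with windows. By windows it was in 4 of 18, against 19.0% of all windows, and a full match can overlap such arms. The stretches of 30 bases below are shown because Sgk1 holds the full match and Tsc22d3 is the other gene with an arm, with the matching letters in capitals. The first, whose match begins 188 bases before 1 of the starts of Sgk1, lies on the forward strand at chr10:21993693-21993722. The second, whose arm begins 185 bases before a start of Tsc22d3, lies on the reverse strand at chrX:140600690-140600719.
Sgk1: atgcggaaaGAACAGAATGTTCtcggagat
Tsc22d3: ccgcattcgacaTGTTCTaagttctgagac

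The 250 bases before the starts of Plin4 and Hif3a are shown because these are the 2 genes chosen by their measured levels. Both lie on reverse strands, Plin4 at chr17:56109783-56110032 and Hif3a at chr7:17062428-17062677. RefSeq's start of Plin4 differs from that of GENCODE at 56109803, so the last bases printed for Plin4 lie inside the gene as GENCODE bounds it. Neither window held the full palindrome, the arm or the letters CACGTG bound by clock factors, which says only that these letters are not in it. CACGTG was found in Fkbp5 and Sgk1, 2 of 9 genes, against 8.09% of all genes with windows. By windows it was in 2 of 18, against 7.15% of all windows.
Plin4: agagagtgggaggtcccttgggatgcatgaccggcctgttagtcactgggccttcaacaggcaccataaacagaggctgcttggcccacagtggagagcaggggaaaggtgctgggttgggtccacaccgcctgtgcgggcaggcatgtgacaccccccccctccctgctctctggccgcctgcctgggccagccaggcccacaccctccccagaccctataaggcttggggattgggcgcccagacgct
Hif3a: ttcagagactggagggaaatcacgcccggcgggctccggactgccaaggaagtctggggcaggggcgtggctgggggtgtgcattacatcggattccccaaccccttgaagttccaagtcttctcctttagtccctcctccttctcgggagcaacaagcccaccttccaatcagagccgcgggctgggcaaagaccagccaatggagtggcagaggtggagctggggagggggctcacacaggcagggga

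Levels are CPM, that is counts relative to the TMM-normalized size of the library. Per kilobase of annotated exon, Ddit4 had the highest mean level over the 24 libraries at 32.6 CPM per kb, followed by Sgk1 at 22.2 and Tsc22d3 at 19.2 CPM per kb. Plin4 at 2.51 and Hif3a at 1.68 CPM per kb were the lowest. Plin4 spanned 18.2 times between its lowest and its highest library, against 8.11 times for Hif3a and 1.63 times for Fkbp5, the least variable. The lowest library of both Plin4 and Hif3a was of Tob-KO at 15 min, among those that chose the pair, so their width is a description only. The plot of levels by library shows 2 courses, one with its low point at 15 min and a return by 3 h, and another with its high point at 1 h. The courses were not exclusive. Sgk1, Nfkbia and Tsc22d3 had their lowest group mean at 15 min and their highest at 1 h in both genotypes.

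**Figure D1:**
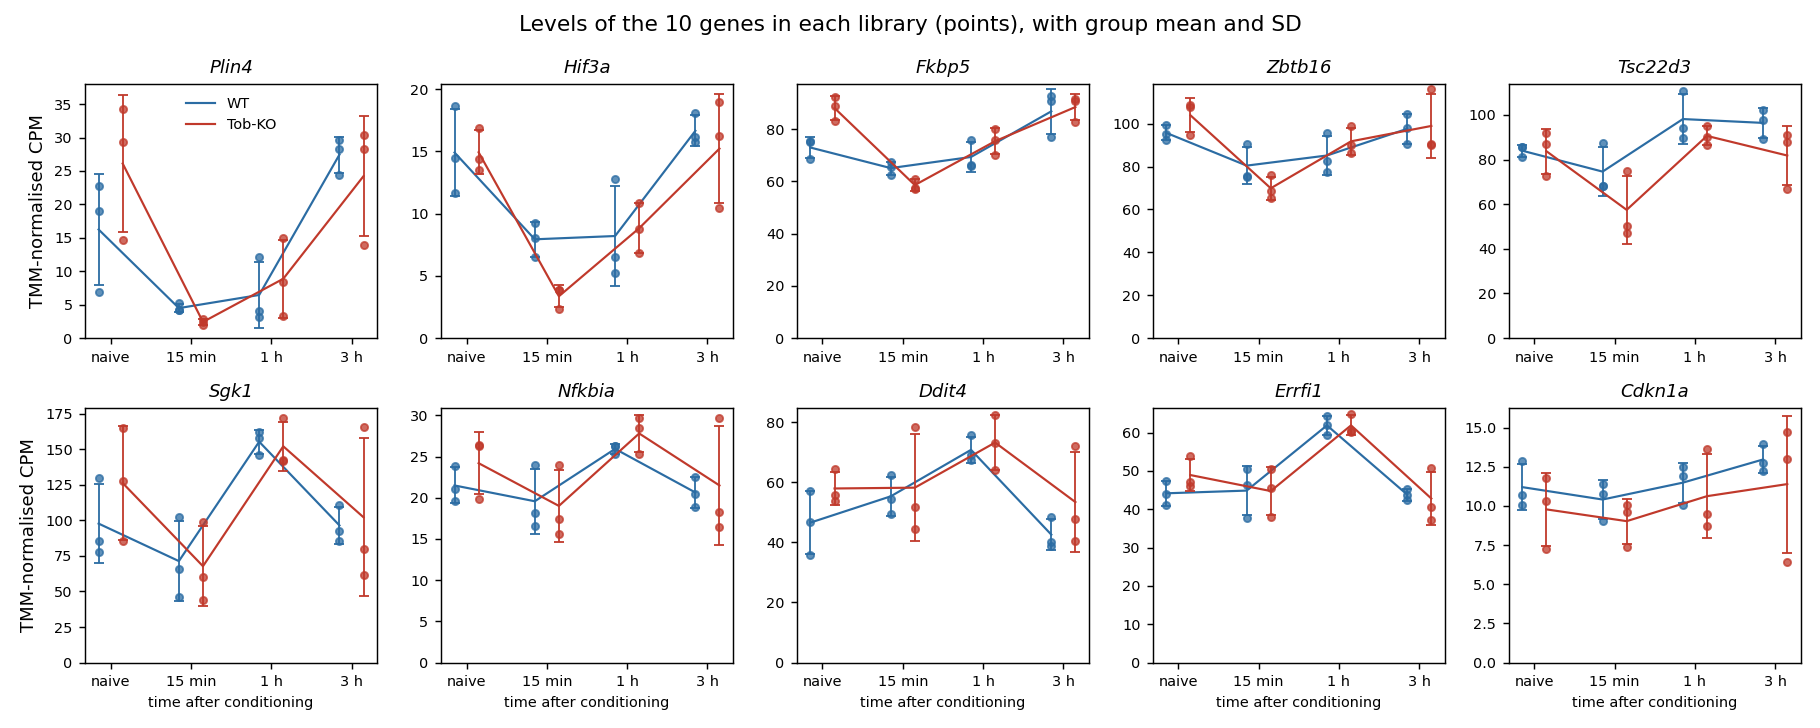
TMM-normalised CPM of the 10 genes (y axis, from 0) over the 4 time points, naive included (x axis), for WT (blue) and Tob-KO (red). Points are single libraries, lines join group means and bars are SDs (n = 3). Plin4 and Hif3a are lowest at 15 min in Tob-KO, at means of 2.40 and 3.36 CPM, while Sgk1 and Errfi1 peak at 1 h in both genotypes.

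Plin4, a coat protein of lipid droplets, lies on the reverse strand of chromosome 17 from 56100591 to 56109803. In naive WT mice its level was 19.0, 22.8 and 6.90 CPM, and at 15 min it was 5.17, 4.12 and 4.13 CPM. At 1 h it was 3.14, 4 and 12.2 CPM, and by 3 h it stood at 24.4, 28.2 and 29.7 CPM. Every WT library at 15 min was thus below every naive one, and every WT library at 3 h was above every naive one. In the Tob-KO libraries Plin4 was 14.7, 34.3 and 29.3 CPM in naive mice, 2.92, 1.89 and 2.40 CPM at 15 min, 3.30, 8.33 and 15.0 CPM at 1 h and 30.4, 14 and 28.3 CPM at 3 h. The Tob-KO libraries at 15 min were the 3 lowest of all 24 libraries, and rested on as few as 67 counts.

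Hif3a, an alpha subunit of the hypoxia-inducible factors that can oppose the other family members, lies on the reverse strand of chromosome 7 from 17031507 to 17062427. Its level in WT mice was 18.6, 14.5 and 11.6 CPM when naive, 9.26, 8.06 and 6.47 CPM at 15 min, 5.25, 6.54 and 12.8 CPM at 1 h and 15.7, 18.1 and 16.2 CPM at 3 h. In the Tob-KO libraries it was 13.5, 14.4 and 16.9 CPM when naive, 3.84, 2.34 and 3.88 CPM at 15 min, 6.83, 8.78 and 10.9 CPM at 1 h and 19.0, 10.4 and 16.2 CPM at 3 h. The Tob-KO libraries at 15 min were again the 3 lowest of all, whereas the WT means were 7.93 ± 1.397 CPM at 15 min and 8.20 ± 4.04 CPM at 1 h (SD, n = 3).

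Change from naive mice was tested separately in WT and in Tob-KO, by the quasi-likelihood test of edgeR on 19500 genes in 24 libraries, and a gene was called at a Benjamini-Hochberg adjusted p of at most 0.05. In WT at 15 min 0 of the 10 genes passed, where 0.0308% of all genes did. The log2 fold change of Plin4 was -1.86 (SE 0.581, adjusted p = 0.481 by edgeR) and that of Hif3a was -0.91 (SE 0.294, adjusted p = 0.493 by edgeR). Fkbp5, Hif3a, Plin4 and Zbtb16 were 4 of the 10 genes with every WT library at 15 min below every naive WT library, as were 4.83% of all genes expressed. Of these, Hif3a and Plin4 had been chosen for a fall over the same interval in Tob-KO, while Fkbp5 and Zbtb16 had not. In the Tob-KO libraries, which chose the pair, the log2 fold change at 15 min was -3.45 for Plin4 and -2.15 for Hif3a.

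Fkbp5 encodes a co-chaperone that lowers the affinity of the receptor for hormone and is itself induced by the receptor, and lies on the reverse strand of chromosome 17 from 28399094 to 28517527. In the Tob-KO libraries its level was 83.1, 92.2 and 88.9 CPM when naive and 57.6, 57.1 and 61.1 CPM at 15 min, with no overlap. Zbtb16, a zinc finger transcription factor on the reverse strand of chromosome 9 from 48654297 to 48836222, went from 109, 94.8 and 108 CPM to 75.9, 68.4 and 65.3 CPM, again with no overlap. Of all genes, 10.3% were lower in this way. These were the 2 of the 8 genes tested that passed in Tob-KO at 15 min, both lower, where 2.43% of all genes passed and 1.62% passed as lower. Fkbp5 fell by 0.59 on the log2 scale (SE 0.0723, adjusted p = 0.000451 by edgeR) and Zbtb16 fell by 0.57 (SE 0.101, adjusted p = 0.0079 by edgeR). Without Tob-KO 15 min replicate 3, Zbtb16 no longer passed (log2 fold change -0.52, adjusted p = 0.0694 by edgeR) and 1 of the 8 genes remained called.

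In WT neither of the 2 genes passed. Fkbp5 was 74.98, 75.5 and 68.4 CPM in naive WT mice and 65.6, 62.4 and 67.3 CPM at 15 min, and Zbtb16 went from 99.4, 92.4 and 95.2 CPM to 90.4, 75.2 and 75.7 CPM. Their log2 fold changes of -0.17 and -0.25 did not pass (adjusted p = 0.558 and 0.545 by edgeR). The difference between the genotypes in this change was -0.42 on the log2 scale for Fkbp5 (SE 0.102, adjusted p = 0.991 by edgeR) and -0.32 for Zbtb16 (SE 0.143, adjusted p = 0.991 by edgeR), so a difference between genotypes was not shown for either. With both genotypes averaged, 6 libraries against 6, a contrast added after the values were seen, Fkbp5 and Zbtb16 were again the 2 of 8 genes that passed, at -0.38 (adjusted p = 0.000302 by edgeR) and -0.41 (adjusted p = 0.00343 by edgeR), where 4.28% of all genes passed and 2.66% passed as lower.

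Markers of other cell types were also read in these groups. Of 6 markers each of brain endothelium, choroid plexus and oligodendrocytes, 0 passed as changed from naive at 15 min in either genotype. Of all genes, 0.0308% passed in WT and 2.43% in Tob-KO. Between genotypes at 15 min, the exact test of edgeR with a 2-fold limit called 0.555% of all genes. It called 6 of 6 choroid plexus markers higher in Tob-KO and 2 of 5 blood cell markers lower. Of the 6 markers each of brain endothelium, astrocytes, oligodendrocytes and hippocampal neurons it called 0. The part of choroid plexus and blood in the genotype differences at 15 min was not tested. Over both genotypes 3 of the brain endothelium markers passed as higher than naive at 15 min, where 4.28% of all genes passed in either direction and 2.66% passed as lower. In Tob-KO the means of the endothelial markers were higher at 15 min, except that of Ly6c1, which went from 19.1 to 15.3 CPM. The summed level of 6 brain endothelium markers was 154 to 212 CPM in naive WT mice and 225 to 297 CPM at 15 min, and 169 to 182 CPM in naive Tob-KO mice and 200 to 219 CPM at 15 min. The sum of 6 choroid plexus markers was 42 to 2369 CPM in naive WT, 24.97 to 41.0 CPM in WT at 15 min, 71.8 to 4720 CPM in naive Tob-KO and 60.1 to 3211 CPM in Tob-KO at 15 min, and none of the markers was at 0 in a group. Astrocyte markers, 6 genes, summed to 1925 to 2066 CPM in naive WT and 1883 to 2289 CPM in WT at 15 min, and to 1781 to 1933 and 1913 to 2147 CPM in Tob-KO. Of these Aqp4, the water channel of astrocyte endfeet, rose by 0.43 in Tob-KO at 15 min (adjusted p = 0.00198 by edgeR) and Gjb6, an astrocyte connexin, fell by 0.43 (adjusted p = 0.0309 by edgeR). Oligodendrocyte markers summed to 4669 to 6542 CPM in naive WT and 5070 to 5911 CPM in WT at 15 min, and to 4805 to 6342 and 6242 to 6559 CPM in Tob-KO. The part of these 2 cell types in the changes was not tested. Blood cell markers summed to 45.5 to 66.6 CPM in naive WT and 64.4 to 124 CPM in WT at 15 min, against 40.8 to 44.4 and 38.3 to 51.1 CPM in Tob-KO. The mean log2 CPM of the 6 endothelial or the 6 choroid plexus markers, rather than their sum, then entered the fit as a covariate. With the endothelial covariate Fkbp5 fell by 0.59 in Tob-KO (adjusted p = 0.00388 by edgeR) and Zbtb16 by 0.57 (adjusted p = 0.0394 by edgeR). With the choroid plexus covariate these genes fell by 0.58 and 0.57. The log2 fold change of Plin4 in WT was -1.54 with the endothelial and -1.48 with the choroid plexus covariate. Markers of hippocampal neurons summed to between 3945 and 5262 CPM in all 24 libraries.

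By 3 h the mean of Plin4 was 27.5 ± 2.69 CPM in WT and 24.2 ± 8.93 CPM in Tob-KO, against 16.2 ± 8.31 and 26.1 ± 10.2 CPM in naive mice (SD, n = 3). In WT at 3 h 0 of the 10 genes passed, as did 0 of all genes by edgeR's quasi-likelihood test, although 742 had an unadjusted p under 0.05, and DESeq2 called 0. In Tob-KO at 3 h 0 of 8 passed, again with 0 of all genes called by edgeR, although 2003 had an unadjusted p under 0.05 and DESeq2 called 27. Fkbp5, Tsc22d3 and Plin4 were the 3 of 10 genes with every WT library at 3 h above every naive WT library, as were 4.34% of all genes. Fkbp5 reached 76.9, 90.7 and 92.9 CPM at 3 h in WT, at a log2 fold change of 0.25 (SE 0.0721, adjusted p = 1 by edgeR). The log2 fold change of Plin4 at 3 h was 0.75 in WT (SE 0.532, adjusted p = 1 by edgeR) and -0.11 in Tob-KO, and that of Hif3a was 0.16 and 0.03. Leaving out 1 library gave 0.40 to 1.08 and -0.39 to 0.17 for Plin4 and 0.01 to 0.35 and -0.16 to 0.24 for Hif3a, so that in Tob-KO the sign depended on single libraries.

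**Figure D2:**
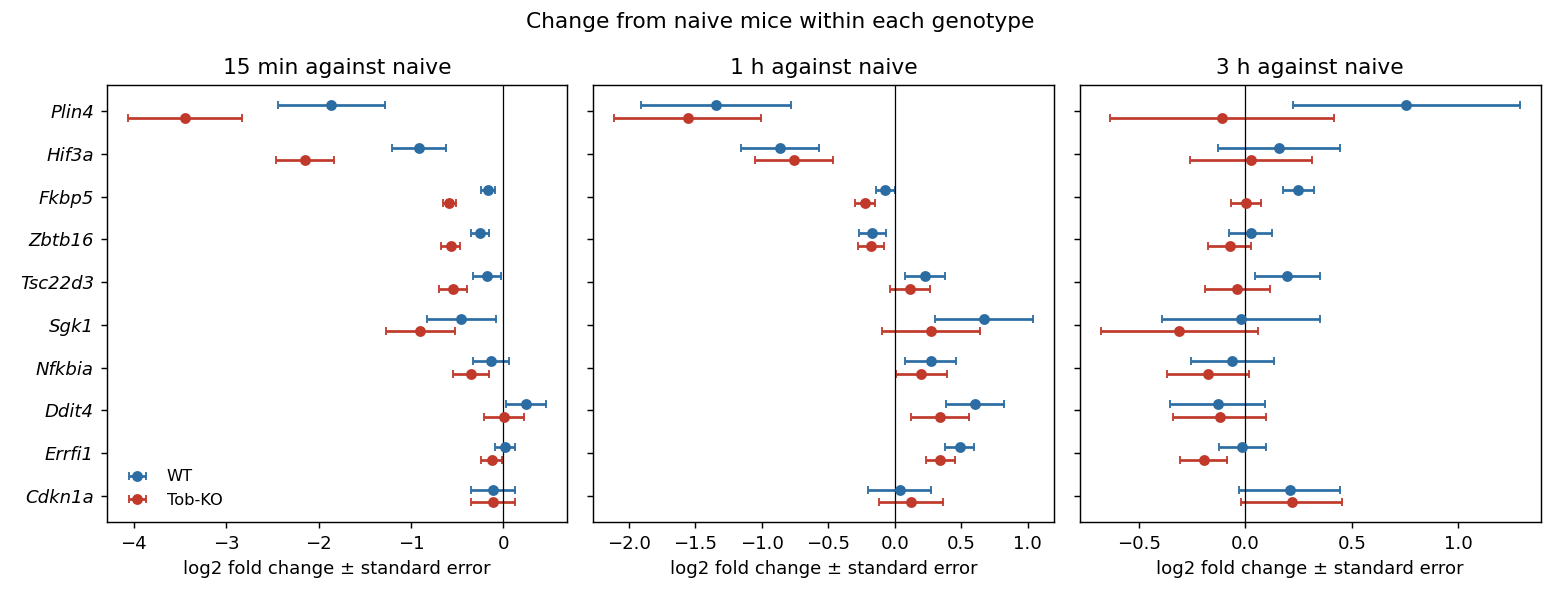
Log2 fold change from naive mice (x axis, points) with its standard error (bars) for each of the 10 genes (y axis), in WT (blue) and Tob-KO (red), with 1 panel for each time after conditioning, earliest on the left, each with its own x scale. At 15 min Plin4 lies at -1.86 in WT and -3.45 in Tob-KO, and at 1 h Errfi1 lies at 0.49 in WT and 0.34 in Tob-KO.

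The second course peaked at 1 h. Errfi1, a feedback inhibitor of the EGF receptor on the forward strand of chromosome 4 from 150853919 to 150868892, was 41.2, 47.5 and 43.9 CPM in naive WT mice and 62.0, 59.4 and 64.3 CPM at 1 h. Tob-KO libraries were at 46.0, 53.8 and 47.0 CPM when naive and 64.9, 60.3 and 60.5 CPM at 1 h. All 6 libraries at 1 h were above all 6 naive libraries, and by 3 h the gene stood at 42.3 to 45.4 CPM in WT and 37.3 to 50.7 CPM in Tob-KO. With both genotypes averaged, Errfi1 rose by 0.41 on the log2 scale (SE 0.0771, adjusted p = 0.00419 by edgeR), the 1 of 8 genes that passed, where 5.66% of all genes did and 2.27% did as higher. Within WT alone its log2 fold change was 0.49 (SE 0.109, adjusted p = 0.0729 by edgeR), and 0 of the 10 genes passed, where 0.164% of all genes did. In Tob-KO alone it was 0.34 (SE 0.109, adjusted p = 0.123 by edgeR), and 0 of 8 genes passed, where 0.918% of all genes did.

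Sgk1, a kinase that acts on ion channels and transporters and is induced by both steroid receptors of the hippocampus, lies on the forward strand of chromosome 10 from 21882184 to 21999903. It was 78.1, 130 and 85.4 CPM in naive WT mice, 102, 46.3 and 65.6 CPM at 15 min, 162, 146 and 158 CPM at 1 h and 92.7, 111 and 85.8 CPM at 3 h. The Tob-KO libraries were at 85.6, 165 and 128 CPM, then 99.0, 60.3 and 44.0 CPM, 142, 142 and 172 CPM, and 79.7, 61.3 and 165 CPM. The libraries at 1 h were high in both genotypes, but a naive and a 3 h library of Tob-KO each reached 165 CPM too. The log2 fold change at 1 h was 0.67 in WT (SE 0.37, adjusted p = 0.568 by edgeR) and 0.27 in Tob-KO (SE 0.368, adjusted p = 0.788 by edgeR). At 15 min it was -0.46 in WT (adjusted p = 0.773 by edgeR) and -0.90 in Tob-KO (adjusted p = 0.226 by edgeR). Leaving out 1 library gave -0.80 to -0.20 in WT and -1.28 to -0.66 in Tob-KO at 15 min, and 0.06 to 0.51 in Tob-KO at 1 h. With the mean log2 CPM of the endothelial markers as a covariate the values at 15 min were 0.40 in WT and -0.46 in Tob-KO.

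Ddit4, an inhibitor of mTORC1, lies on the reverse strand of chromosome 10 from 59949669 to 59951834. Its level was 35.9, 57.1 and 46.7 CPM in naive WT mice and 75.8, 67.4 and 69.2 CPM at 1 h, and 55.8, 64.3 and 53.7 CPM and 82.3, 73.2 and 64.1 CPM in Tob-KO. WT libraries did not overlap, whereas the lowest Tob-KO library at 1 h was just below the highest naive one. The log2 fold change was 0.60 in WT (SE 0.218, adjusted p = 0.31 by edgeR), 0.34 in Tob-KO (adjusted p = 0.487 by edgeR) and 0.47 over both genotypes (SE 0.154, adjusted p = 0.0858 by edgeR).

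Nfkbia, the inhibitor that holds NF-kB in the cytoplasm, lies on the reverse strand of chromosome 12 from 55489410 to 55492647. It was 19.6, 23.9 and 21.0 CPM in naive WT mice and 26.3, 25.3 and 26.3 CPM at 1 h, without overlap, and 19.9, 26.3 and 26.5 CPM against 25.3, 28.5 and 29.6 CPM in Tob-KO, with overlap. At 15 min the mean of Nfkbia was 19.6 CPM in WT and 19.0 CPM in Tob-KO. These were below the naive means of 21.5 and 24.2 CPM, with overlap. Its log2 fold change at 1 h was 0.27 in WT and 0.20 in Tob-KO and passed in neither (adjusted p = 0.671 and 0.67 by edgeR). Tsc22d3, which encodes the anti-inflammatory protein GILZ, lies on the reverse strand of chromosome X from 140539528 to 140600659 and, like Sgk1 and Nfkbia, shared features of both courses. It was 85.4, 85.5 and 81.0 CPM in naive WT, 87.3, 68.2 and 68.3 CPM at 15 min and 89.6, 94.3 and 111 CPM at 1 h. In the Tob-KO libraries it was 72.4, 91.8 and 86.9 CPM, then 74.8, 47.3 and 50.2 CPM and then 86.5, 90.3 and 94.9 CPM. Its log2 fold change at 15 min was -0.55 in Tob-KO (SE 0.154, adjusted p = 0.0699 by edgeR), -0.17 in WT (adjusted p = 0.789 by edgeR) and -0.36 over both (adjusted p = 0.0678 by edgeR). Without Tob-KO 15 min replicate 1, whose level of 74.8 CPM stood above the other two, it passed in Tob-KO at -0.78 (adjusted p = 0.011 by edgeR), and DESeq2 called it with all libraries (adjusted p = 0.00612).

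Cdkn1a, the cell cycle inhibitor p21, lies on the forward strand of chromosome 17 from 29090976 to 29100727 and was also low per kilobase. Its group means lay between 9.03 CPM in Tob-KO at 15 min and 13.0 CPM in WT at 3 h, and it passed in no comparison.

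Counted without a fit, 5 of the 10 genes (Tsc22d3, Sgk1, Ddit4, Errfi1 and Nfkbia) had every WT library at 1 h above every naive WT library, as had 7.54% of all genes. In Tob-KO 1 of 8 did, Errfi1, against 9.38% of all genes. From 15 min to 1 h, 5 of the 10 genes were higher without overlap in WT (7.25% of all genes) and 6 of 8 in Tob-KO (7.2% of all genes), the latter being Fkbp5, Tsc22d3, Sgk1, Zbtb16, Errfi1 and Nfkbia. From 1 h to 3 h in WT, Sgk1, Ddit4, Errfi1 and Nfkbia were lower without overlap (9.66% of all genes) while Fkbp5, Hif3a and Plin4 were higher (9.45% of all genes). In Tob-KO over the same interval, Errfi1 was the 1 of 10 that was lower (9.54% of all genes) and Fkbp5 the 1 that was higher (9.88% of all genes).

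Tob-KO was compared with WT separately at the 4 times by the exact test of edgeR, and a gene was called where its adjusted p did not exceed 0.05 and its level differed at least 2-fold. Tob1, the deleted gene, was 33.7 to 44.4 CPM in the 12 libraries labelled WT and 52.0 to 68.6 CPM in the 12 libraries labelled Tob-KO, higher by 0.56 on the log2 scale over all times (SE 0.0351, adjusted p = 8.21e-10 by edgeR), so its level goes against the label. How these reads lie along the gene is not known from counts, and every direction given for Tob-KO refers to the libraries so labelled. Of the genes tested, 0 of 8 passed in naive mice (0.0218% of all genes) and at 15 min (0.555%), and 0 of 10 passed at 1 h (0.033%) and at 3 h (0.0274%). Over all times 0 of 8 passed, where 0.451% of all genes did.

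The nearest to a difference between genotypes was Fkbp5 in naive mice. All 3 Tob-KO libraries, at 83.1 to 92.2 CPM, were above all 3 WT libraries, at 68.4 to 75.5 CPM, as were 5.42% of all genes. The log2 difference was 0.27 (SE 0.0625, adjusted p = 0.487 by edgeR), a fold change of 1.21. At 15 min the order was turned, with Fkbp5 at 57.1 to 61.1 CPM in Tob-KO and 62.4 to 67.3 CPM in WT, at a log2 difference of -0.15 (SE 0.0606, adjusted p = 0.639 by edgeR). It was the 1 of 8 genes that was lower in Tob-KO at 15 min without overlap, as were 6.78% of all genes. Zbtb16 and Tsc22d3 differed at 15 min by -0.20 and -0.37 (adjusted p = 0.562 and 0.516 by edgeR), and leaving out 1 library gave -0.27 to -0.11 and -0.61 to -0.25. Without Tob-KO 15 min replicate 1 the adjusted p of Tsc22d3 was 0.000328 by edgeR, at -0.61 and so under the fold limit. At that time Plin4 and Hif3a, described without a test, were lower in Tob-KO than in WT by 0.90 and 1.24 on the log2 scale, with no overlap, and in naive mice Plin4 differed by 0.69 with overlap. At 1 h the tested log2 difference was 0.46 for Plin4 (SE 0.837, adjusted p = 1 by edgeR) and 0.11 for Hif3a (SE 0.406, adjusted p = 1 by edgeR), and at 3 h it was -0.19 (SE 0.316) and -0.14 (SE 0.209), with groups that overlapped and signs that turned when 1 library was left out.

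The difference between genotypes in the change from naive was tested for 8 genes at each time, and 0 passed at 15 min, 1 h or 3 h. No gene of the 19500 passed either (0%), by edgeR or by DESeq2, while 899, 753 and 895 genes had an unadjusted p under 0.05. At 15 min the log2 fold changes of Plin4 and Hif3a were more negative in Tob-KO by 1.59 (SE 0.835) and 1.23 (SE 0.425), which is a description of the libraries that chose them.

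Other genes of the pathway were read from fixed lists, drawn up with earlier results of these data known. Of 4 genes for receptors and steroid enzymes, Nr3c1, the receptor itself, was the 1 that passed at 15 min in Tob-KO, at a log2 fold change of 0.27 (adjusted p = 0.0133 by edgeR). Of all genes, 2.43% passed there, and over both genotypes 4.28% passed at 15 min and 5.66% at 1 h. Over both genotypes Nr3c1 rose by 0.18 at 15 min (adjusted p = 0.00771 by edgeR) and by 0.13 at 1 h (adjusted p = 0.046 by edgeR). Of 7 receptor chaperones, Dnajb1, an HSP40 co-chaperone also induced by heat, was the 1 that passed at 1 h, where 0.164% of all genes passed in WT and 0.918% in Tob-KO. It rose by 0.52 in WT (adjusted p = 0.0418 by edgeR) and by 0.67 in Tob-KO (adjusted p = 0.0126 by edgeR). Over both genotypes Dnajb1 rose by 0.27 at 15 min (adjusted p = 0.0444 by edgeR) and by 0.59 at 1 h (adjusted p = 0.000221 by edgeR).

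Of 20 other glucocorticoid-induced genes, 1 rose, 4 fell and 15 did not pass at 15 min in Tob-KO, with a median log2 fold change of -0.42 against 0.005 over all genes, of which 2.43% passed and 1.62% passed as lower. Those that fell were Sult1a1, a sulfotransferase, at -1.14 (adjusted p = 0.0145 by edgeR), Mfsd2a, a lipid transporter of the blood-brain barrier, at -0.82 (adjusted p = 0.00709 by edgeR), Fam107a, an actin-binding stress protein, at -0.44 (adjusted p = 0.0323 by edgeR), and Gpd1, a glycerol phosphate dehydrogenase, at -0.40 (adjusted p = 0.0153 by edgeR). The gene that rose was Dusp1, a phosphatase of MAP kinases that is also an immediate early gene, at 1.23 (adjusted p = 0.0185 by edgeR). In WT at 15 min 0 of the 20 passed, where 0.0308% of all genes did, with a median of -0.11. At 1 h Pdk4, a kinase that inhibits pyruvate dehydrogenase, was the 1 of 20 that passed in WT, at 0.82 (adjusted p = 0.0371 by edgeR), and 0 of 20 passed in Tob-KO. Of all genes, 0.164% passed at 1 h in WT and 0.918% in Tob-KO. At 3 h 0 of 20 passed in either genotype, and 0 of 20 differed between genotypes in naive mice, at 15 min or at 3 h, and so did 0 of the 19 tested at 1 h.

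Over both genotypes at 15 min 1 of the 20 rose and 6 fell, where 4.28% of all genes passed and 2.66% passed as lower. Dusp1 rose by 1.13 (adjusted p = 0.00233 by edgeR), and the 3 largest falls were those of Sult1a1 at -0.83 (adjusted p = 0.00594 by edgeR), Map3k6 at -0.67 (adjusted p = 0.0476 by edgeR) and Mfsd2a at -0.58 (adjusted p = 0.00362 by edgeR). At 1 h 2 of the 20 rose and 1 fell, where 5.66% of all genes passed and 2.27% passed as higher. Pdk4 rose by 0.64 (adjusted p = 0.00247 by edgeR), Txnip, an inhibitor of thioredoxin, rose by 0.60 (adjusted p = 0.0116 by edgeR), and Sult1a1 fell by 0.53 (adjusted p = 0.0499 by edgeR). Of 9 clock genes, whose day-night rhythm is tied to the hormone, Per3 was the 1 that passed, at -0.56 in Tob-KO at 15 min (adjusted p = 0.0391 by edgeR) and at -0.43 and -0.37 over both genotypes at 15 min and 1 h (adjusted p = 0.0172 and 0.0341 by edgeR). The shares of all genes that passed in these comparisons were 2.43%, 4.28% and 5.66%. The hour of day at which mice were culled is not given in the sources used here, and its part in these changes was not tested.

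Genes that tracked Plin4, Hif3a and Fkbp5 across all 24 libraries were ranked by Pearson's r of log2 CPM among 14447 genes with a mean of at least 1 CPM. These correlations describe libraries that share conditions and time points. Nearest to Plin4 were Mfsd2a (r = 0.935), Sdc4 (r = 0.908), Rin2 (r = 0.891), Prodh (r = 0.882) and Kirrel2 (r = 0.878). Nearest to Hif3a were Prr5 (r = 0.903), Sult1a1 (r = 0.884), Kirrel2 (r = 0.883), Mfsd2a (r = 0.882) and Eva1a (r = 0.881). Nearest to Fkbp5 were Mfsd2a (r = 0.90), Mkl1 (r = 0.892), Sdc4 (r = 0.873), Pdzd2 (r = 0.872) and Smim3 (r = 0.841). Mfsd2a was in all 3 lists. Its group means ran from 25.5 CPM in naive Tob-KO to 14.4 CPM at 15 min, 19.9 CPM at 1 h and 25.9 CPM at 3 h, and from 21.2 to 16.9, 19.9 and 25.8 CPM in WT.

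The genes were also compared between mice of the same group. Each library's log2 CPM was taken as its deviation from its group mean, and the 45 pairs of the 10 genes were correlated over the 24 libraries with 100000 permutations within groups. Pearson's r ran from -0.201 to 0.957 with a median of 0.421. Pairs with Plin4 or Hif3a were not tested, since libraries that chose them enter, and 7 of the other 28 pairs had an adjusted permutation p of at most 0.05. Sgk1 and Nfkbia were the most alike, at r = 0.957 (permutation p = 2e-05, adjusted 0.00056) and Spearman's rho = 0.923 (permutation p = 9e-05, adjusted 0.00182), and leaving out the 2 farthest libraries gave r = 0.935. Plin4 and Hif3a had r = 0.824 and rho = 0.797, and leaving out the 2 farthest libraries gave r = 0.761. Fkbp5 and Sgk1, both regarded as direct targets of the receptor, had r = 0.012 (permutation p = 0.954, adjusted 0.962) and rho = 0.068 (permutation p = 0.76, adjusted 0.887), and r = -0.006 when the 2 farthest libraries were dropped.

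**Figure D3:**
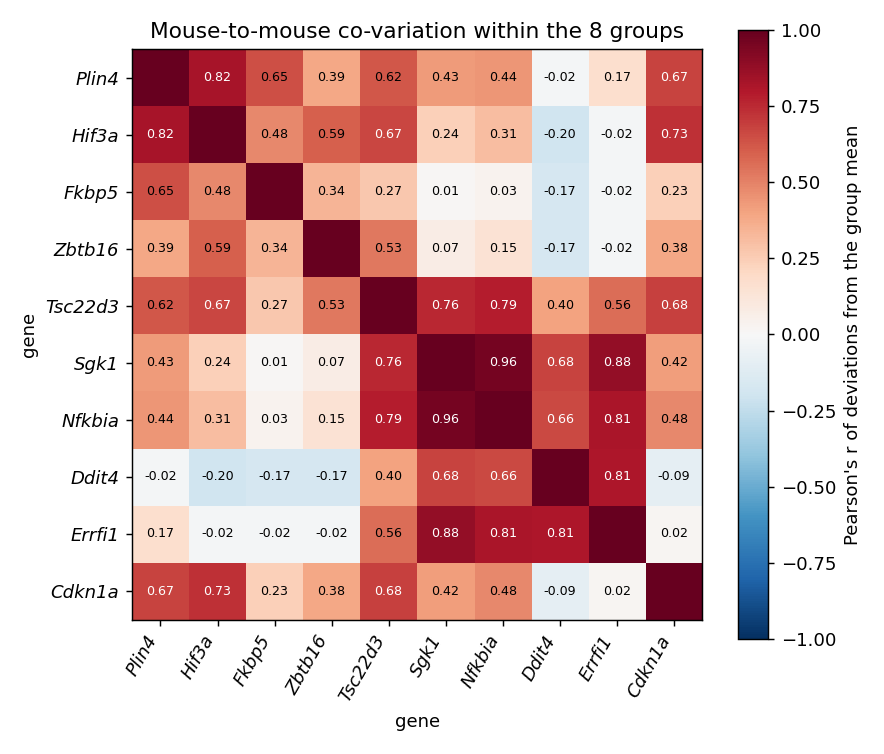
Pearson's r between the 10 genes (both axes) of each library's deviation from its group mean in log2 CPM, over 24 libraries in 8 groups of 3, with red for positive and blue for negative values. Sgk1 reaches 0.957 with Nfkbia, 0.877 with Errfi1 and 0.757 with Tsc22d3, and Plin4 and Hif3a reach 0.824.

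The levels of both pairs in single libraries are drawn against each other in the plot of paired genes. The deviations of Sgk1, Errfi1 and Nfkbia also ran against the summed brain endothelium markers, with r of -0.594, -0.64 and -0.495 over the same 24 libraries. For Plin4 and Hif3a these r were -0.171 and 0.068. Against the choroid plexus sum Sgk1 had r = 0.005 and Plin4 r = 0.328. With the astrocyte sum r was -0.486, -0.453 and -0.49 for Sgk1, Errfi1 and Nfkbia, and -0.133 and -0.118 for Plin4 and Hif3a. With the hippocampal neuron sum it was -0.276 and -0.542 for Plin4 and Hif3a, and -0.103, 0.16 and -0.207 for Sgk1, Errfi1 and Nfkbia. Ddit4 had r of -0.501 with the endothelial and -0.453 with the choroid plexus sum. Whether cell composition contributed to the pairs was not tested.

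**Figure D4:**
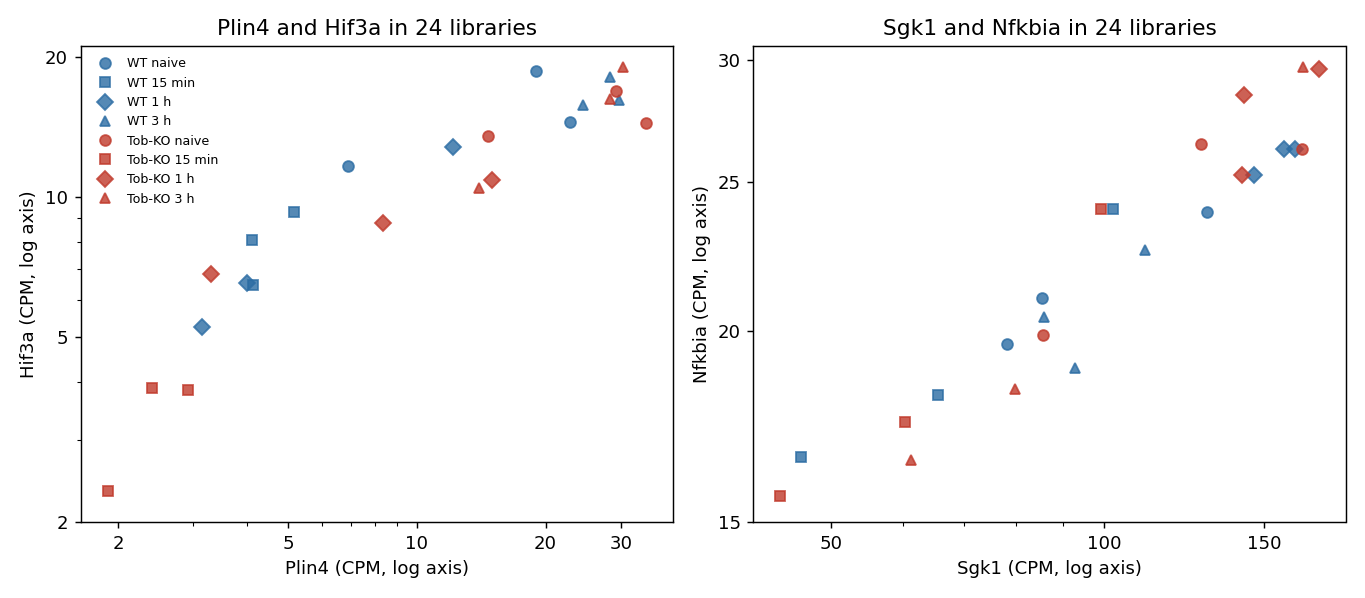
Levels of Plin4 against Hif3a (left) and of Sgk1 against Nfkbia (right) in CPM on log axes, with 1 point for each of 24 libraries, coloured by genotype (blue WT, red Tob-KO) and shaped by time. On the left the 3 Tob-KO libraries at 15 min lie lowest, at 1.89 to 2.92 CPM of Plin4, and on the right the 1 h libraries of both genotypes lie at 142 to 172 CPM of Sgk1.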

How the data were processed

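RNA sequencing of 24 mouse hippocampi was analysed. Per the labels and the methods of the study, poly(A) RNA was made into directional libraries with 8 PCR cycles and read as paired ends of 150 bp. Per the submitters' processing notes, reads were mapped to GRCm38 with STAR 2.6.1d and counted with HTSeq 0.9.0. The authors deposited raw counts of reads for each gene and library, which were not normalized. The annotation release and the strand setting are not given in the sources used here. The column names of the counts hold the word markdup, which points to marked duplicates, but whether marked reads were counted is not given. Without molecular identifiers counts are not independent molecules. Plin4 shares 17 exon bases with Hdgfl2 on the opposite strand. Coordinates are those of GENCODE on GRCm38.

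Counts were TMM-normalized and compared in R 4.3.3 with edgeR 4.0.16. The genotypes at each time were compared by the exact test over 6 libraries with the study's settings, at least 0.2 CPM in 2 libraries, p and its Benjamini-Hochberg adjusted value both at most 0.05, and a difference of at least 2-fold. Changes from naive, their difference between genotypes and the genotype over all times were tested by the quasi-likelihood test over 24 libraries, with no fold limit. Standard errors on the log2 scale come from quasi-likelihood fits. The members, the gene lists and the tests were chosen with earlier results of these data known. Genes outside the 10 were named by a rule, namely those of the 4 lists of receptors and enzymes, chaperones, other induced genes and clock genes that passed, or the 3 largest in each direction where more than 6 passed, and the 5 genes most like Plin4, Hif3a and Fkbp5. Cell type markers were named only beside a result they touch. Scripts were tested on simulated data. DESeq2 1.42.0, other size factors, no filter, fold limits, a replicate block and each library left out were alternatives.

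The labels call the 3 samples of a group biological replicates, and pairs within groups differed by a chi-square of 3.68 to 22.8 per degree of freedom, so that none was a repeated library.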

Additional observations from a re-analysis of the deposited data

How the results depend on the processing

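Over 170 differences of the 10 genes, 51 were counted with the opposite sign under an alternative, all of them 0.46 or smaller on the log2 scale. A further 10 moved across the threshold, some of which may be among the 51. Where Plin4 and Hif3a were not tested, a turn of sign by less than their spread within groups was left out of this count. The turns of both genes in Tob-KO at 3 h were left out in this way, so 51 is a lower bound. A fold limit of 2 left 0 called genes in Tob-KO at 15 min and 0 over both genotypes at 15 min and at 1 h. DESeq2 called 3 genes in Tob-KO at 15 min and 3 over both genotypes at 15 min, Tsc22d3 being the added one (adjusted p = 0.00612 and 0.00914), 1 gene at 1 h in WT and 1 in Tob-KO (Errfi1 in both), and 2 over both genotypes at 1 h. The 6 libraries alone gave 1 call at 1 h in WT and 1 in Tob-KO, and the choroid plexus covariate, added after the values were seen, gave 2 over both genotypes at 1 h. The causes were not tested. Leaving out 1 library moved the calls in Tob-KO at 15 min to between 1 and 3. It moved the log2 genotype difference at 1 h to between -0.13 and 0.58 for Hif3a and between -0.15 and 1.31 for Plin4, and at 3 h to between -0.33 and 0.075 and between -0.38 and 0.091. Sgk1 in WT at 15 min turned to 0.40 with the endothelial covariate, also added after the values were seen.

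Equal replicate numbers were not taken to pair the libraries. Each of the 10 pairs of groups compared had a number whose deviations correlated at 0.057 or less. That is the lowest of 3 values for each pair of groups, so it cannot exclude pairing. For naive and 15 min Tob-KO mice the 3 values were 0.319, 0.36 and 0.057. With the replicate block the genes called stayed at 2 in Tob-KO at 15 min, 2 over both genotypes at 15 min and 1 at 1 h, and the calls over all genes in Tob-KO at 15 min went from 474 to 264. Over all genes DESeq2 called 956 there, 42 against 6 in WT at 15 min, 180 against 32 in WT at 1 h and 686 against 179 in Tob-KO at 1 h.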
